A study of Mus musculus with 20 samples.

Results

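The innate sensors of foreign RNA were followed in the hippocampus of mice that had been infused with human small RNAs (sRNAs). The 9 genes were chosen by name from the 25190 genes of the count table. They were Tlr3, Tlr7 and the TLR7 adaptor Myd88, and the RIG-I-like receptors Ddx58, Ifih1 and Dhx58 with the adaptor Mavs. The others were the double-stranded RNA binding enzymes Eif2ak2 and Adar. All 9 were counted in each of the 20 libraries. The mice were wild-type C57BL/6JOlaHsd males, 4 months old, all implanted with cannulas over the hippocampus. After the infusions they were taken through behavioural tests, which began 24 h after the last infusion and ran over several days. Tissue was collected 24 h after the last test, so that levels soon after an infusion were not measured. The Vehicle group (5 libraries) received artificial cerebrospinal fluid, the Control group (5) sRNAs pooled from the hippocampus of people without psychiatric illness, and the Pool 1 and Pool 2 groups (5 each) sRNAs pooled from separate sets of patients with schizophrenia. Each infusate was thus 1 pool of human RNA, so that the mice of a group shared the same material. The labels name the tissue as hippocampal and the series text as CA1.

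Mammalian cells read RNA of foreign origin in separate compartments. In endosomes, TLR3 binds double-stranded RNA and TLR7 single-stranded RNA, and TLR7 signals through the adaptor MYD88. In the cytoplasm, RIG-I (Ddx58) and MDA5 (Ifih1) bind RNA with foreign ends or long duplexes, LGP2 (Dhx58) modulates both, and the signal runs through MAVS on mitochondria to the transcription factors that switch on type I interferon. PKR (Eif2ak2) halts translation when it binds double-stranded RNA, and ADAR1 (Adar) edits adenosines in duplexes so that the cell's own RNA is not read as foreign. Several of these genes are themselves induced by interferon, and in brain Tlr7 is prominent in microglia.

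The libraries held 20588280 to 25543939 counts, and a member had between 18 (Dhx58) and 5325 (Adar) counts in a library, so that none was near the detection limit. Marker genes of hippocampal neurons such as Camk2a and Neurod6 summed to between 4684 and 6980 CPM in every library. CPM is the count relative to the total of the library, scaled by the TMM method. Camk2a made up most of the sum, with a mean of 4763 CPM. Over the 18 libraries described below, Prox1 ranged from 45.3 to 209 CPM and Rbfox3 from 236 to 304 CPM. Pool 2 replicate 1 stood apart from the other libraries, with 1937 CPM of 12 microglial markers against 490.6 to 838.6 CPM in the others. Vehicle replicate 4 stood apart through 8980 CPM of 6 choroid plexus markers, against at most 2287 CPM elsewhere. The mean normalized counts of the study's gene tables were matched, to within 0.011, for 1477 of 1477 genes by the 18 libraries without these and for 24 by all 20. Results are therefore given over 20 libraries and over those 18. In bulk tissue, fewer cells of a type and less RNA per cell cannot be told apart.

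Since interferon-induced genes are often recognised by a motif of paired GAAA blocks near their start, the starts of the members were searched for it. RefSeq windows of 300 bases (250 before to 50 after the start, GRCm38.p6) were at hand for 7 of the 9 genes, all but Tlr7 and Dhx58. The windows are shown because Ddx58, Ifih1 and Eif2ak2, which were high in the same libraries, are among the genes holding the motif. Myd88 holds it too but did not follow Ddx58 (Spearman correlation -0.0075 over 20 libraries). A link between motif and level was not tested. Members were counted per gene, with 3 windows for Adar and 1 for each other gene, whereas the share of all windows counts each window singly. The letters GAAANNGAAA, read on both strands, were found in 4 of the 7 genes, Ddx58, Ifih1, Eif2ak2 and Myd88, against 3.44% of all 32851 windows. In windows of 30 bases on the gene's strand, with the match in capitals (as its reverse complement in Ddx58), these were as follows.
Ddx58, chr4:40239804-40239833, untranslated exon: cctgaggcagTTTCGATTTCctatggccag
Ifih1, chr2:62646206-62646235, exon of a non-coding transcript: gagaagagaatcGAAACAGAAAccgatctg
Eif2ak2, chr17:78882535-78882564, untranslated exon: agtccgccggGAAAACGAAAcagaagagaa
Myd88, chr9:119340039-119340068, intron: gagcttctcgGAAAGCGAAAgaaggagggg

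The match began 2 bases after the RefSeq start in Ddx58, 18 after it in Eif2ak2 and 32 after it in Ifih1, and in Myd88 at position -40, before the start. The related letters GAAANGAAA, found in 3.17% of all windows, stood at position -60 of Ddx58, outside the gene, and 28 bases after 1 of 3 starts of Adar, in an untranslated exon.
Ddx58, chr4:40239866-40239895: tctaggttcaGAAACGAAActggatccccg
Adar, chr3:89730736-89730765: ccttttcaagGAAACGAAAgtgaactctgg

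Neither form was found in the windows of Tlr3 and Mavs. Among 21 other genes known to be induced by interferon, 13 had a window and 8 of these held GAAANNGAAA. The motifs were chosen after the sequences had been seen, and a match is a description of the letters only.

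Per kilobase of exon, Adar was by far the most abundant sensor RNA in this tissue, at 22.2 ± 2.08 CPM per kb (SD, n = 20), above 91.3% of all genes. The endosomal receptor Tlr3 followed at 3.31 ± 0.536, Myd88 at 2.60 ± 0.429 and Mavs at 2.44 ± 0.417 CPM per kb. Eif2ak2 (1.61 ± 0.557), Ddx58 (1.099 ± 0.369), Tlr7 (1.06 ± 0.304), Ifih1 (0.584 ± 0.196) and Dhx58 (0.535 ± 0.319) had the lowest levels per kb. Apart from Adar and Tlr3, the ranges of mean ± SD of neighbours in this order overlapped over the 20 libraries. Ddx58 was above Tlr7 in 11 of 20 libraries and Ifih1 above Dhx58 in 14 of 20, while Eif2ak2 was above Ddx58 in every library.

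**Figure D1:**
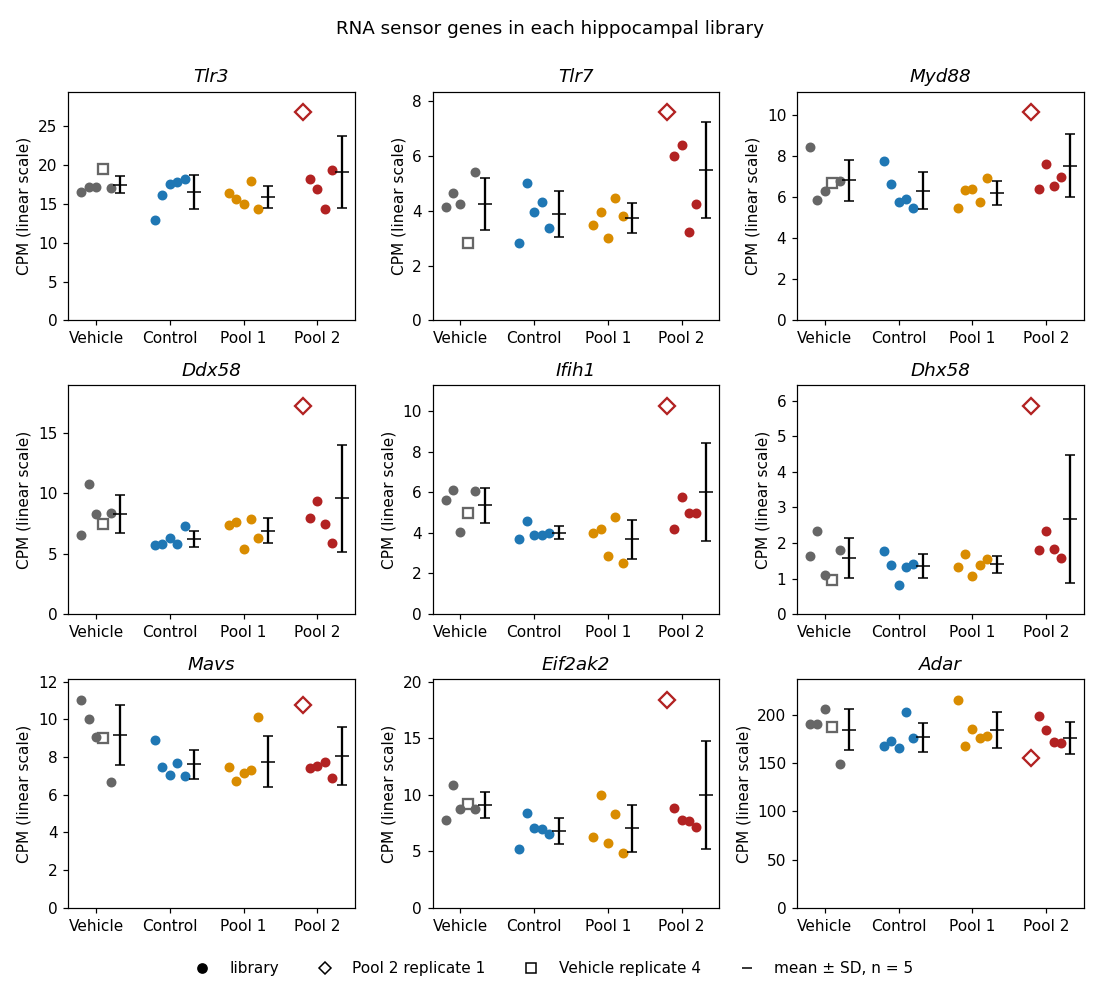
Level of the 9 genes in CPM (vertical axes, linear from 0) in each library of the 4 groups, with mean ± SD (n = 5) beside the points. The open diamond, Pool 2 replicate 1, is the highest of the 20 libraries for 7 genes, reaching 17.2 CPM for Ddx58 and 5.85 for Dhx58, and the second lowest for Adar.

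Among the RIG-I-like receptors, Ddx58, which encodes RIG-I (ENSMUSG00000040296.15, GRCm38 chr4:40203773-40239828), had 6.57, 10.7, 8.28, 7.50 and 8.38 CPM in Vehicle replicates 1 to 5. It had 5.72, 5.83, 6.31, 5.84 and 7.34 CPM in the Control libraries and 7.36, 7.67, 5.39, 7.89 and 6.27 CPM in Pool 1. The Pool 2 libraries had 17.2, 7.95, 9.38, 7.47 and 5.89 CPM. Of the 5 Vehicle libraries, 4 lay above every Control library, and Pool 2 replicate 1 was 1.61 times the next highest library of any group. Pool 2 replicates 2, 3 and 4 also lay above every Control library, and the Pool 2 libraries other than replicate 1 overlapped with the Pool 1 and Vehicle libraries.

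Ifih1, the gene of MDA5 (ENSMUSG00000026896.14, chr2:62595798-62646255), was at 5.60, 6.10, 4.04, 5.00 and 6.05 CPM in Vehicle libraries. In Control libraries it was at 3.71, 4.56, 3.91, 3.90 and 3.98 CPM, the tightest of the 4 groups, and in Pool 1 at 4.01, 4.21, 2.86, 4.78 and 2.53 CPM. In Pool 2 it was at 10.2, 4.21, 5.75, 4.97 and 4.98 CPM. Here 4 Pool 2 libraries, and 4 Vehicle libraries as well, lay above the highest Control library, and those 4 Pool 2 libraries were also above every Pool 1 library.

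Dhx58, the gene of LGP2 (ENSMUSG00000017830.15, chr11:100694884-100704271), was the scarcest member. Its libraries had 1.64, 2.34, 1.09, 0.965 and 1.82 CPM in Vehicle, 1.79, 1.39, 0.829, 1.31 and 1.42 CPM in Control and 1.34, 1.70, 1.07, 1.38 and 1.54 CPM in Pool 1. In Pool 2 they had 5.85, 1.79, 2.33, 1.84 and 1.59 CPM. Pool 2 replicate 1 was 2.502 times the next library, the widest gap of any member, and 4 of 5 Pool 2 libraries lay above every Control library, by a narrow margin in replicate 2 (1.791 against 1.788 CPM). The antisense gene Dhx58os overlaps Dhx58 on the other strand, and the strand setting of the counting is not given in the sources used here.

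Mavs, the mitochondrial adaptor that relays RIG-I and MDA5 (ENSMUSG00000037523.13, chr2:131234063-131248025), did not follow its receptors. It had 6.70 to 11.04 CPM (median 9.08) in Vehicle, 6.99 to 8.90 (7.46) in Control, 6.73 to 10.1 (7.33) in Pool 1 and 6.92 to 10.8 CPM (7.54) in Pool 2. Its highest library was Vehicle replicate 1, and Pool 2 replicate 1 ranked second. The groups overlapped throughout.

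Of the endosomal receptors, Tlr7 (ENSMUSG00000044583.13, chrX:167304929-167330558) had 4.13, 4.63, 4.24, 2.81 and 5.40 CPM in Vehicle and 2.82, 5.00, 3.96, 4.33 and 3.36 CPM in Control. In Pool 1 it had 3.48, 3.95, 3.01, 4.48 and 3.82 CPM. In Pool 2 it had 7.59, 6.00, 6.42, 3.21 and 4.25 CPM, so that replicates 1, 2 and 3 lay above all other libraries of the series and replicates 4 and 5 among them. Vehicle replicate 4 was the lowest of the 20 libraries for this gene.

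Tlr3 (ENSMUSG00000031639.12, chr8:45395665-45411080) had 16.5 to 19.4 CPM in Vehicle, 12.9 to 18.2 in Control and 14.3 to 17.9 in Pool 1. Pool 2 replicates 2 to 5 had 14.4 to 19.3 CPM and Pool 2 replicate 1 had 26.7 CPM, 1.38 times the next library. Myd88, the adaptor of TLR7 (ENSMUSG00000032508.8, chr9:119335934-119341411), had 5.85 to 8.43 CPM in Vehicle, 5.48 to 7.73 in Control and 5.46 to 6.94 in Pool 1. It had 6.39 to 7.58 CPM in the other Pool 2 libraries and 10.1 CPM in Pool 2 replicate 1. Apart from that library the groups overlapped for both genes. Myd88 shares its strand with part of Slc22a14 and lies across from Acaa1a, so its counts may miss reads that could not be assigned.

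Eif2ak2, the gene of PKR (ENSMUSG00000024079.4, chr17:78852564-78882573), had 7.79, 10.9, 8.72, 9.17 and 8.75 CPM in Vehicle and 5.19, 8.37, 7.09, 6.997 and 6.50 CPM in Control. In Pool 1 it had 6.27, 9.95, 5.78, 8.32 and 4.82 CPM, and in Pool 2 18.4, 8.84, 7.79, 7.72 and 7.13 CPM. Of the Control libraries, 4 were below every Vehicle library, and the Pool 2 libraries other than replicate 1 overlapped with both groups. Adar, the gene of ADAR1 (ENSMUSG00000027951.16, chr3:89715022-89753446), had 148.7 to 205.8 CPM in Vehicle, 165.7 to 202.6 in Control, 167.8 to 215.4 in Pool 1 and 154.9 to 198.2 CPM in Pool 2. It was the only member with Pool 2 replicate 1 near the bottom of the series, at rank 19 of 20. Gene counts do not separate the interferon-inducible long form of Adar from the constitutive one.

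**Figure D2:**
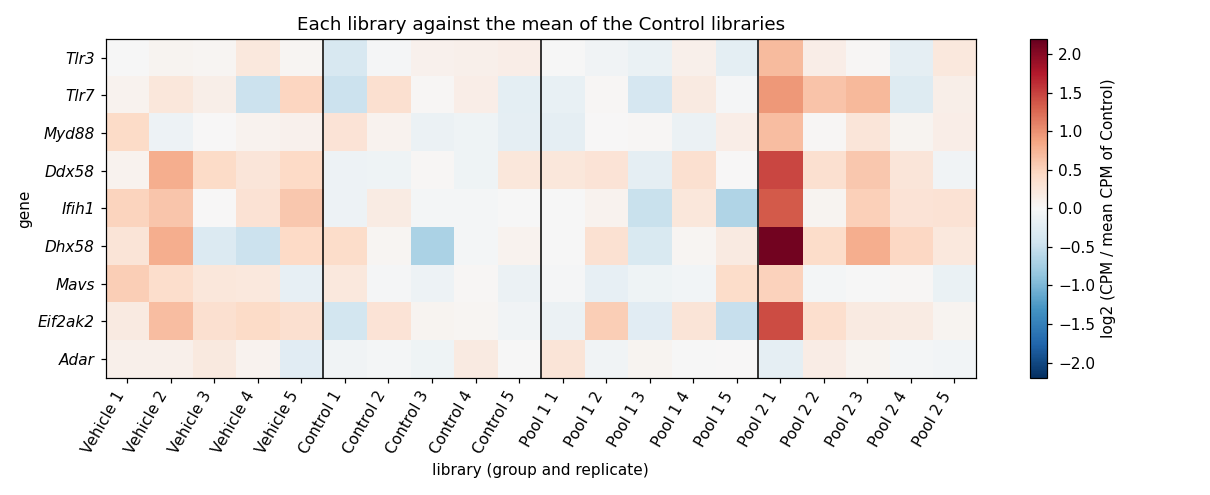
Log2 ratio of each library (columns, group and replicate) to the mean CPM of the 5 Control libraries for each gene (rows). Pool 2 replicate 1 reaches 2.12 for Dhx58, 1.47 for Ddx58, 1.43 for Eif2ak2 and 1.35 for Ifih1, against -0.19 for Adar.

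First, Pool 2 mice were compared with Control mice, which asks whether sRNAs of this set of patients altered the sensors beyond what human sRNAs of unaffected donors did. Over all 20 libraries, 5 of the 9 sensors were higher in Pool 2 (log2 fold change of at least 0.3 and unadjusted p under 0.05, the threshold of the study), against 5.2% of all genes, and 0 were lower, against 1.01%. Dhx58 rose 1.98-fold (log2 fold change 0.98, SE 0.318), Ddx58 1.54-fold (0.62, SE 0.208), Ifih1 1.499-fold (0.58, SE 0.209), Eif2ak2 1.46-fold (0.54, SE 0.229) and Tlr7 1.41-fold (0.49, SE 0.211). Tlr3 (0.21), Myd88 (0.25), Mavs (0.08) and Adar (-0.01) did not pass. The median log2 fold change was 0.49 for the members and 0.00294 for all genes tested.

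These calls rested on Pool 2 replicate 1. Over the 18 libraries 0 of the 9 sensors passed in either direction in edgeR and 0 in DESeq2. Among all genes 3.38% were higher and 1.17% lower in edgeR. An edgeR unadjusted p under 0.05 was reached by 0 members and by 1311 of all 25190 genes. The edgeR estimates were then 0.48 for Dhx58 (unadjusted p = 0.0549), 0.31 for Ddx58 (unadjusted p = 0.0638), 0.31 for Ifih1 (unadjusted p = 0.0965), 0.35 for Tlr7 (unadjusted p = 0.0886) and 0.20 for Eif2ak2 (unadjusted p = 0.258). Their 95% intervals ran from -0.06 to 0.68 for Ifih1 and from -0.01 to 0.98 for Dhx58, and the median over the members was 0.20. The smallest adjusted p of a member in the edgeR quasi-likelihood test, with Benjamini-Hochberg adjustment over all genes, was 0.479 over the 20 libraries and 0.940 over the 18.

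**Figure D3:**
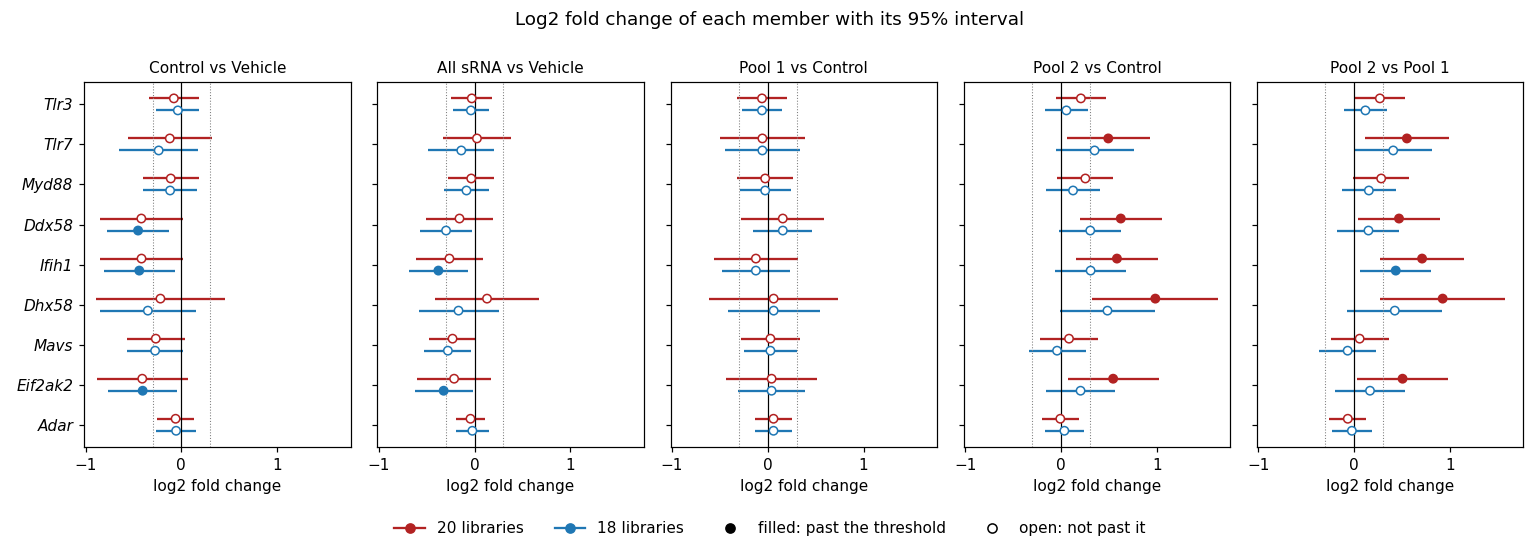
Log2 fold change (horizontal axes) with 95% interval of each gene in the 5 comparisons, over 20 libraries (red) and 18 (blue). Filled points pass the threshold, and dotted lines mark a change of 0.3. The filled points to the right of 0 number 5 for Pool 2 vs Control and 5 for Pool 2 vs Pool 1 over 20 libraries, and 0 and 1 over 18.

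Next, the pools of patients were compared directly, since their comparisons with Control mice share the Control libraries. Over 20 libraries the same 5 sensors, Dhx58 (log2 fold change 0.92, SE 0.317), Ifih1 (0.71, SE 0.210), Tlr7 (0.55, SE 0.211), Eif2ak2 (0.50, SE 0.229) and Ddx58 (0.47, SE 0.207), were higher in Pool 2 than in Pool 1. This stands beside 5.66% of all genes higher and 1.16% lower. Over 18 libraries Ifih1 alone stayed past the threshold, 1.35-fold higher in Pool 2 (log2 fold change 0.43, SE 0.179, edgeR unadjusted p = 0.0238, adjusted p = 0.794), against 3.91% of all genes higher and 1.04% lower. The mean of Ifih1 was then 4.98 ± 0.630 CPM (SD, n = 4) in Pool 2 and 3.68 ± 0.948 CPM (SD, n = 5) in Pool 1. Tlr7 and Dhx58 kept estimates of 0.41 and 0.42 that did not pass (edgeR unadjusted p = 0.0509 and 0.0900). The smallest adjusted p of a member over 20 libraries was 0.293, for Ifih1.

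Pool 1 mice did not differ measurably from Control mice in any sensor. No member passed in edgeR or DESeq2. That stands over 20 libraries against 1.48% of all genes higher and 1.99% lower, and over 18 against 1.48% and 2.3%. No member had an edgeR unadjusted p under 0.05, against 1314 of all 25190 genes over 20 libraries and 1376 over 18. The log2 fold changes lay between -0.12 (Ifih1) and 0.16 (Ddx58), with 5 of 9 above 0 and a smallest edgeR unadjusted p of 0.462 over the 20 libraries. The precision differed among the genes. The 95% interval of Adar, from -0.13 to 0.25, left room only for small changes, whereas that of Dhx58 ran from -0.61 to 0.74.

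The comparison of Control with Vehicle mice asks whether the sensors differed, at the time sampled, after human sRNAs from unaffected donors. All 9 log2 fold changes were negative, with a median of -0.22 against -0.01 for all genes. Over 20 libraries 0 of the 9 passed in edgeR and 0 in DESeq2, against 1.7% of all genes higher and 3.41% lower in edgeR. An edgeR unadjusted p under 0.05 was found for 0 members and for 1672 of all 25190 genes. The genes of RIG-I, MDA5 and PKR had the largest negative log2 fold changes, with Ddx58 at -0.42 (SE 0.209, edgeR unadjusted p = 0.0568), Ifih1 at -0.42 (SE 0.210, unadjusted p = 0.0592) and Eif2ak2 at -0.41 (SE 0.230, unadjusted p = 0.0892). Over the 18 libraries, with Vehicle replicate 4 and Pool 2 replicate 1 left out, these 3 genes fell in Control mice. Ddx58 was at 0.731 times its Vehicle level (log2 fold change -0.45, SE 0.156, unadjusted p = 0.00834), Ifih1 at 0.738 times (-0.44, SE 0.178, unadjusted p = 0.0214) and Eif2ak2 at 0.756 times (-0.40, SE 0.175, unadjusted p = 0.0305). They stood beside 1.7% of all genes higher and 3.37% lower, and the smallest adjusted p of a member was 0.750 in edgeR. The standard errors were smaller over 18 libraries, while the log2 fold changes of these 3 genes moved by little. A fit of the Control and Vehicle libraries alone, all 10 of them, also called these 3 genes lower. With Vehicle replicate 4 alone left out, 0 of the 9 passed. Leaving out Pool 2 replicate 1 alone was not run for this comparison. Mavs was at -0.27 in both library sets (edgeR unadjusted p = 0.0816 and unadjusted p = 0.0671) and did not pass.

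Across all 15 libraries that received human sRNA, whatever the donors, no sensor passed the threshold as higher than in the Vehicle group. Over 20 libraries 0 of 9 passed in either direction in edgeR and 0 in DESeq2. Among all genes 0.921% were higher and 3.84% lower in edgeR. Of all 25190 genes 1543, and 0 of the members, had an edgeR unadjusted p under 0.05. The log2 fold changes of the members ran from -0.26 (Ifih1) to 0.13 (Dhx58, 95% interval from -0.41 to 0.67). Over 18 libraries, 14 of them infused with sRNA, all 9 were negative. An edgeR unadjusted p under 0.05 was found for 4 members, beside 1345 of all 25190 genes, and 2 of these 4 fell by at least 0.3. Ifih1 was at 0.770 times the Vehicle level (log2 fold change -0.38, SE 0.148, edgeR unadjusted p = 0.0176, adjusted p = 0.823) and Eif2ak2 at 0.800 times (-0.32, SE 0.146, unadjusted p = 0.0370, adjusted p = 0.904), against 0.699% of all genes higher and 3.62% lower. Ddx58 at -0.30 (unadjusted p = 0.0317) and Mavs at -0.28 (unadjusted p = 0.0283) had a change just short of 0.3. Of the 14 libraries, 10 had less Eif2ak2, and 7 less Ifih1 and Ddx58, than the lowest of the 4 Vehicle libraries.

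The neighbours of the 9 genes in the same pathway showed where else the difference in Pool 2 lay. The list of 23 other innate sensors held mostly sensors of nucleic acids, with Tlr2, Tlr4 and Nlrp3 besides. Of these 23, 13 were higher in Pool 2 than in Control mice over 20 libraries and 2 over 18, with 0 lower in either set. The medians were 0.75 and 0.32 on the log2 scale. Among all genes 5.2% were higher over 20 libraries and 3.38% over 18. The nucleic acid sensor Zbp1, which triggers cell death on Z-form RNA and DNA, had a log2 fold change of 4.03 (SE 1.04) over 20 libraries and 1.77 (SE 0.585) over 18. Oas1a, which makes the messenger that activates RNase L, was at 2.08 (SE 0.591) over 20 and 0.96 (SE 0.424) over 18. In Pool 2 replicate 1 Zbp1 had 11.6 CPM, against 0.0398 to 0.917 CPM in the 18 libraries. Both genes were scarce. Zbp1 had as few as 1 count in a library and a mean of 0.163 CPM in Control mice, and Oas1a 2 counts and 0.346 CPM.

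Of 23 adaptors and kinases, 7 were higher in Pool 2 than in Control mice over 20 libraries, against 5.2% of all genes. Over 18 libraries 1 was higher, near the share of all genes, 3.38%. That gene was Trim25, the ubiquitin ligase that activates RIG-I, at 0.57 (SE 0.166) and 0.36 (SE 0.141). Of 11 transcription factors downstream of the sensors, 5 were higher over 20 libraries, among them the interferon regulatory factor Irf7 (1.55, SE 0.512), and 0 over 18. Of 14 inhibitors, 4 and 2 were higher, with Socs3, the feedback inhibitor of cytokine receptors, at 1.07 (SE 0.299) and 0.66 (SE 0.256).

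Beyond the sensors, Irf9, which helps to carry the signal of the interferon receptor to the nucleus, was higher over 20 libraries (0.58) and did not pass over 18. The type I interferon genes Ifnb1 and Ifna4 were not among the genes of the table. Of 21 interferon-induced genes, 17 were higher over 20 libraries and 3 over 18, against 5.2% and 3.38% of all genes. The 3 were Samd9l, a growth-restraining gene (0.84 and 0.54), the chemokine Cxcl10 (3.31 and 1.98) and the antiviral enzyme Rsad2 (1.20 and 0.65). Cxcl10 had as few as 1 count in a library. Of 10 genes of A-to-I editing and double-stranded RNA binding, 0 passed in any comparison and library set. Among all genes the shares were at most 5.66% higher and 3.84% lower, so that 0 of 10 is near them. Of 12 genes around PKR and translational stress, 1 passed in 1 comparison and library set. That was Atf4 (-0.31), lower in Pool 2 than in Control over 18 libraries, against 1.17% of all genes.

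Against Pool 1, Pool 2 mice had 12 of the 23 other sensors higher over 20 libraries and 1 over 18 (Aim2, a sensor of DNA, at 0.36). Among all genes 5.66% were higher over 20 libraries and 3.91% over 18, and 1 of 23 is near the latter share. Of the interferon-induced genes 17 and 6 were higher, of the transcription factors 6 and 1 (Irf7, at 0.68), of the inhibitors 3 and 1 (Socs3, at 0.83), and of the adaptors and kinases 6 and 0. In Pool 1 against Control mice, over 18 libraries, Ddx60, an interferon-induced helicase, was higher (0.80) and Aim2 (-0.33) and the kinase Irak4 (-0.43) were lower. No other gene of these lists passed the threshold, and 0 did over 20 libraries. Among all genes 1.48% were higher and 2.3% lower over 18 libraries.

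Of the 23 other sensors 6 were lower in Control than in Vehicle mice over 18 libraries, against 3.37% of all genes, and 0 higher. Among them were Ddx60 at -1.43 (SE 0.345) and Tlr2, a receptor for bacterial lipoproteins, at -1.02 (SE 0.312). Zbp1, with as few as 1 count in a library, was at -1.73 (SE 0.589). Over 20 libraries 2 were lower, against 3.41% of all genes, Ddx60 (-1.25) and Tlr2 (-0.997). Among the adaptors, Unc93b1, which escorts the endosomal receptors, was at -0.54 (SE 0.119), Trim25 at -0.49 (SE 0.141) and the kinase Ikbke at -0.66 (SE 0.227) over 18 libraries. Of the 21 interferon-induced genes 9 were lower over 18 libraries and 2 over 20, with Rsad2 at -1.02 and -0.84. For all sRNA groups against Vehicle, 5 other sensors, 3 adaptors and kinases and 7 interferon-induced genes were lower over 18 libraries. Over 20 libraries 0 of each were lower. Among all genes 3.62% were lower over 18 libraries and 3.84% over 20.

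Markers of cell types were followed in the same libraries. Which cells held the sensor RNA was not measured here. The 12 microglial markers summed to 551.0 to 838.6 CPM in Vehicle, 490.6 to 785.5 in Control and 502.0 to 610.8 in Pool 1, and to 530.9 to 834.4 CPM in Pool 2 without replicate 1. Of these markers 5 were higher in Pool 2 than in Control over 20 libraries and 0 over 18, against 5.2% and 3.38% of all genes. Against Pool 1, 10 and 1 were higher, beside 5.66% and 3.91% of all genes. The 1 over 18 libraries was the complement gene C1qb at 0.50. In Control against Vehicle mice 0 passed over 20 libraries and 1 was lower over 18, beside 3.41% and 3.37% of all genes lower. That 1 was the chemokine receptor Cx3cr1 at -0.34 (SE 0.0943). Over 18 libraries the sRNA groups together had 3 of the 12 lower, Cx3cr1, Aif1 and Itgam, against 3.62% of all genes.

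The 9 markers of blood leukocytes summed to 35.7 CPM in Pool 2 replicate 1, against 6.92 to 10.2 CPM in the other Pool 2 libraries, 4.97 to 7.34 in Control, 3.45 to 6.72 in Pool 1 and 5.57 to 13.6 CPM in Vehicle. In Pool 2, 5 of the 9 were higher than in Control over 20 libraries and 2 over 18, against 5.2% and 3.38% of all genes. Compared with Pool 1, 7 and 4 were higher, beside 5.66% and 3.91% of all genes. In Control mice 2 were lower than in Vehicle in both sets, beside 3.41% and 3.37% of all genes. Ptprc, the CD45 gene of all leukocytes and of microglia, was lower in Control than in Vehicle mice in both library sets (-0.77 and -0.85) and higher in Pool 2 than in Control (1.11 and 0.51). Of the other 8 markers, 7 had 0 counts in at least 1 library and Ccr2 had as few as 1. In Pool 2 replicate 1 Cd8a was at 1.83 CPM and Ly6c2 at 2.42 CPM, against at most 0.500 and 0.253 CPM in the 18 libraries.

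Astrocyte markers summed to 7476 CPM in Pool 2 replicate 1 and to 4620 to 6137 CPM elsewhere, and 5 endothelial markers to 247.6 CPM against 104.7 to 202.6 CPM. Of the 8 astrocyte markers Gfap and Aqp4 were higher in Pool 2 than in Pool 1 in both library sets, beside 5.66% and 3.91% of all genes. Gfap was lower in Pool 1 than in Control in both sets (-0.49 in each) and higher in Pool 2 than in Control over 20 libraries (0.49), but not past the threshold over 18. Thalamic markers did not peak in that library, at 147.0 CPM, but reached 588.7 CPM in another Pool 2 library. Of these, 6 of 7 were higher in Pool 2 than in Control over 18 libraries, against 3.38% of all genes. Transcripts without a poly(A) tail, of which 3 of 8 listed were in the table, summed to 476.3 to 1580 CPM in Control, 553.4 to 4464 in Vehicle, 1532 to 12590 in Pool 1 and 3010 to 8404 CPM in Pool 2. All 3 were higher in Pool 1 and in Pool 2 than in Control mice in both library sets. Among all genes 1.48% were higher in Pool 1 in each set, and 5.2% and 3.38% in Pool 2. Of the choroid plexus markers, 6 of 6 were lower in the sRNA groups together than in Vehicle over 20 libraries and 0 over 18. Among all genes 3.84% and 3.62% were lower. The part of these cell types and transcripts in the differences of the sensors was not tested.

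**Figure D4:**
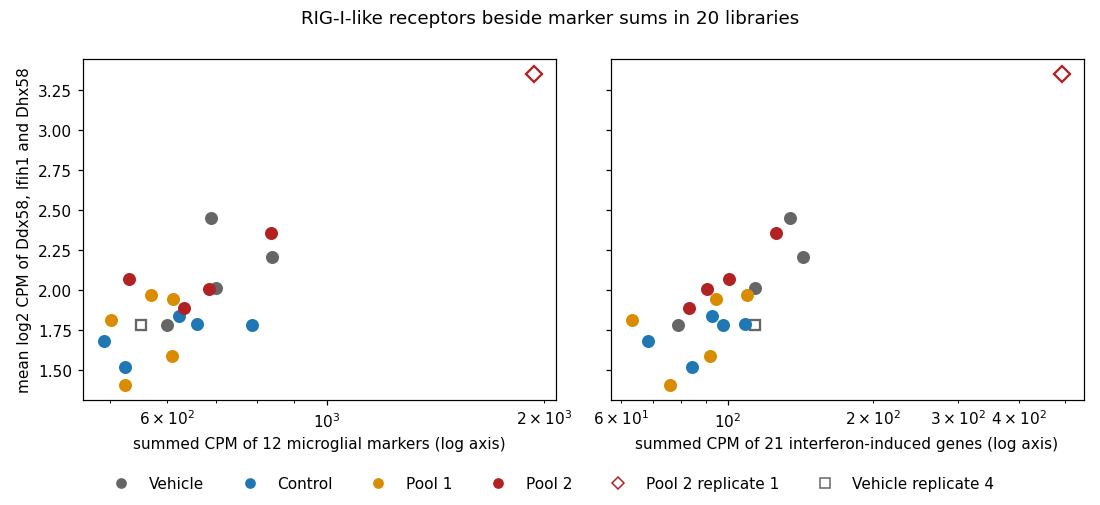
Mean log2 CPM of Ddx58, Ifih1 and Dhx58 (vertical axis) against the summed CPM of 12 microglial markers (left) and of 21 interferon-induced genes (right) on log axes, 1 point per library. Pool 2 replicate 1 lies apart at 3.35 on the vertical axis, with 1937 CPM of microglial markers and 492.1 CPM of interferon-induced genes.

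As a description over libraries, which share group and tissue makeup, the mean log2 CPM of Ddx58, Ifih1 and Dhx58 had a Spearman correlation of 0.74 with the summed interferon-induced genes over 20 libraries and 0.74 over 18. With the microglial sum it was 0.66 and 0.61. Of 14788 other genes with a mean of at least 1 CPM, those most alike over 20 libraries were Irf7 (0.91), Oasl2 (0.90), Gbp3 (0.87), Iigp1 (0.86) and Msn (0.86). Over 18 libraries they were Irf7 (0.91), Oasl2 (0.89), Msn (0.86), Iigp1 (0.85) and Trim30a (0.85). Within the set, Eif2ak2 followed Ifih1 (0.77 and 0.73) and Ddx58 (0.75 and 0.70) in both library sets, while Adar stood at 0.02 and 0.17 with Ddx58.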

How the data were processed

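Poly(A)-selected, stranded libraries of mouse hippocampal RNA were sequenced as 50 nt single-end reads. Per the labels and the study's methods, the authors checked reads with FastQC (0.11.5), aligned them to GRCm38/mm10 and counted them per gene with STAR, using GENCODE annotation, and summed the sequencing rounds of a library. The deposited values are raw counts per gene, from which genes with a total count under 10 had been removed, which fixes the set tested. Depth was 20588280 to 25543939 counts per library, which limits the precision of the scarce members most.

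Counts were scaled by TMM and fitted with edgeR 4.0.16 (quasi-likelihood test, robust) in R 4.3.3, with 4 groups of 5 libraries in 1 model. Adjusted p-values are Benjamini-Hochberg values over 25190 genes. The threshold was the study's (log2 fold change of 0.3, unadjusted p of 0.05). Samples were grouped by their titles. The labels do not state that replicates came from separate animals, so p-values measure the spread between these samples, which may be technical. Same-numbered libraries were not paired. Libraries of a group all differed by more than counting error (chi-square over genes of 8.22 to 66.8 for each degree of freedom). Alternatives were DESeq2 1.42.0, its size factors, filters on low counts, a non-robust fit, the compared groups alone, a replicate block, the 18 libraries and leaving out each library. The fit was tested on simulated data.

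The 9 genes and the lists of pathway genes and cell markers were chosen with earlier results of these data known. Named are all 9 members, up to 3 genes per list, comparison and library set with the smallest p among those past the threshold, and the 5 genes most alike. Markers named for their level in Pool 2 replicate 1 were chosen after their values were seen. Exon lengths and positions came from GENCODE M21, promoter windows from RefSeq (GRCm38.p6). Amino acid sequences were not used here. The small RNA content of the human pools and the protein and behavioural data were not analysed here. A result of the interferon receptor relay is not reported here.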

Additional observations from a re-analysis of the deposited data

Results flagged for a closer look

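Pool 2 replicate 1 was far above the other 4 libraries of its group for Mavs (its gap to the nearest library was 0.753 of the group's range on the log2 CPM scale) and Eif2ak2 (0.774). Vehicle replicate 4 was likewise above its group for Tlr3 (0.755), and Pool 1 replicate 5 for Mavs (0.740). Among 36 groups tested in this way, chance gives such a gap in about 1 of 20. For Ddx58, Ifih1 and Dhx58 the gap of Pool 2 replicate 1 did not reach the limit of 0.71 that was used for 5 libraries.

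As a repeat of the Pool 2 vs Pool 1 test, the difference from Control mice was compared between the pools. In edgeR over 20 libraries it was larger in Pool 2 than in Pool 1 by 0.92 on the log2 scale for Dhx58, 0.71 for Ifih1, 0.55 for Tlr7, 0.50 for Eif2ak2 and 0.47 for Ddx58, and over 18 libraries the value was 0.43 for Ifih1, the only one of these 5 still past the threshold. The mean of Tlr7 in the 4 Pool 2 libraries without replicate 1 was 4.97 ± 1.5 CPM (SD, n = 4), the widest spread of any group of Tlr7 in that library set.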

How the results depend on the processing

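The number of sensors past the threshold turned on the libraries included and little on the tool. Over the 18 libraries it was 3 for Control vs Vehicle, 2 for all sRNA vs Vehicle, 0 for Pool 2 vs Control and 1 for Pool 2 vs Pool 1, in edgeR and in DESeq2 alike, against 0, 0, 5 and 5 over 20. A fit of only the compared groups gave 3 for Control vs Vehicle, Pool 2 vs Control and Pool 2 vs Pool 1. For all sRNA vs Vehicle that fit is the one reported. Single libraries were left out in turn, each only for the comparisons that include its group. This gave 0 to 1 for Control vs Vehicle, 0 to 2 for all sRNA vs Vehicle, 0 to 5 for Pool 2 vs Control and 1 to 7 for Pool 2 vs Pool 1. Without Pool 2 replicate 1 these were 2 for all sRNA vs Vehicle, 0 for Pool 2 vs Control and 1 for Pool 2 vs Pool 1, and Pool 2 vs Pool 1 was at 3 without Pool 1 replicate 3. In Control vs Vehicle 1 gene passed without Vehicle replicate 1, 3 or 5 or Control replicate 1 or 5, and in all sRNA vs Vehicle 1 without Vehicle replicate 5. No alternative gave a member of Pool 1 vs Control, and normalization by DESeq2 size factors, the filters on low counts and the default estimate of the spread kept every count within 1 of the one reported.

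Same-numbered libraries correlated in their deviations by -0.38 to 0.30, so the numbers are no pairing. With the replicate block the counts were 0, 0, 0, 5 and 4, the gene lost being 1 of Pool 2 vs Pool 1.

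Log2 fold changes that turned sign were all of members that had not passed. Over 18 libraries, in edgeR and DESeq2, those of all sRNA vs Vehicle were -0.139 and -0.133 for Tlr7 and -0.168 and -0.160 for Dhx58, those of Pool 2 vs Control -0.0412 and -0.0513 for Mavs and 0.0352 and 0.0248 for Adar, and those of Pool 2 vs Pool 1 -0.0687 and -0.0820 for Mavs. Leaving out 1 library, all sRNA vs Vehicle ranged from -0.0795 to 0.0122 for Tlr3, -0.0915 to 0.126 for Tlr7, -0.0362 to 0.318 for Dhx58 and -0.0845 to 0.0607 for Myd88. Pool 1 vs Control ranged from -0.152 to 0.0505 for Tlr7, -0.0681 to 0.182 for Dhx58, -0.0879 to 0.0886 for Mavs, -0.118 to 0.150 for Eif2ak2, -0.00266 to 0.111 for Adar and -0.0727 to 0.0570 for Myd88. Pool 2 vs Control ranged from -0.0412 to 0.145 for Mavs and -0.0538 to 0.0352 for Adar, and Pool 2 vs Pool 1 from -0.0686 to 0.172 for Mavs. Filters on low counts, which test fewer genes, brought the 876 to 1718 genes past the threshold per comparison to 426 to 1153 (by expression in edgeR) and 402 to 1133 (by mean normalized count of 10). The cause of the other shifts was not tested.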
